A study of Mus musculus with 4 samples.

Results

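Tripartite motif (TRIM) genes encode one of the largest groups of RING-type ubiquitin ligases. The members examined were chosen by a rule on names, with earlier results of these data known. Every gene was taken whose symbol is Trim followed by a number and at most 1 letter. It also needed a protein-coding transcript in the annotation used by the deposited tables. This gave 68 genes among the 55536 of the gene tables, of which 21901 have a protein-coding transcript. Their level, their spread between libraries, the transcripts they were assigned and the sequence they share were described in macrophages grown from mouse bone marrow.

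A typical TRIM protein carries a RING domain, 1 or 2 B-box zinc fingers and a coiled coil, followed by a C-terminal domain that differs between subfamilies. The RING recruits a ubiquitin-conjugating (E2) enzyme, the coiled coil pairs the protein with itself, and the C-terminal domain (often a SPRY domain) selects the substrate. In macrophages several members act on the sensors and adaptors of innate immunity: some attach ubiquitin chains that activate them, others lead to their degradation, and many of the genes are themselves induced by interferon.

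The series held 4 polyA-selected RNA-seq libraries from C57BL/6J bone marrow-derived macrophages, all in a single group: every culture received 100 ng/mL of the same stimulus for 60 min. The labels name that stimulus both as Lipid A and as lipoprotein A, so it is called the stimulus here. They give replicates 1 to 4 with 1 technical replicate each and the same donor entry, with no allele or transgene and with age and sex not collected. No unstimulated cells were analysed here, so no value measures a response to the stimulus, and the tests below measure only the spread between these libraries, which may be technical.

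Gene counts summed to 26917288, 30042945, 35277710 and 39438391 in replicates 1 to 4. Replicate 1 stood apart in having the fewest counts and the largest share from annotated ribosomal RNA genes. That share was 12.4% against 3.43% to 7.28% in the others, and it joins nuclear and mitochondrial genes, which were not counted apart. All 8 macrophage markers were at or above 1 TPM (the length-corrected share of transcripts in a library) in every library. They summed to between 19637 and 35202 TPM, lowest in replicate 1 and nearly as low in replicate 3 (20390 TPM). Most of that sum was Lyz2, at 14541, 28530, 14293 and 21375 TPM in replicates 1 to 4. In counts scaled as described below, 5 of the 8 were lowest in replicate 1 (as were 32.6% of all genes) and 1, Itgam, was highest there. Neutrophil and precursor markers (4 of 8 at or above 1 TPM in every library) summed to between 69.0 and 727.7 TPM and were highest in replicate 3. Of the T and NK cell, B cell, dendritic, stromal and erythroid lists, none had a marker at or above 1 TPM in every library, their sums reached at most 3.83 TPM, and the erythroid gene Hbb-bs was at 0 throughout. No pair of libraries looked like a repeat of one library: between 47.7% and 72.7% of genes differed beyond counting noise in each of the 6 pairs.

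The promoter windows below are shown because the element they carry was found mostly in the interferon-associated members. The interferon-stimulated response element is the DNA motif bound by interferon regulatory factors and by the complex that type I interferon activates. It was searched as GAAANNGAAA on both strands, which reads TTTCNNTTTC on the other, in RefSeq promoters of 250 bases before to 50 bases after each start. Promoters matched 53 of the 68 members. The element was present for 9 of the 53 (17.0%), against 1079 of 27025 genes with a promoter (3.99%). Of 15 members listed as interferon-inducible, 14 had a promoter and 8 of these held it (57.1%), whereas 1 of the other 39 did (2.56%). A match is a run of letters and not a shown binding site. The windows of 30 bases below are from GRCm38.p6 (mm10), written 5′ to 3′ on the gene's own strand with the matched letters in capitals.
Trim21 (chr7:102565447-102565476, minus strand): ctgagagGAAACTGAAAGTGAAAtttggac
Trim26 (chr17:36836979-36837008, plus strand): cttccgaTTTCACTTTCCTTTTCtcgggcc
Trim34a (chr7:104244457-104244486, plus strand): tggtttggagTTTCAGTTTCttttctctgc
Trim5 (chr7:104288136-104288165, minus strand): agagttgtggTTTCTGTTTCatttccagag
Trim12a (chr7:104315466-104315495, minus strand): agagttgtggTTTCTGTTTCatttccagag
Trim12c (chr7:104353359-104353388, minus strand): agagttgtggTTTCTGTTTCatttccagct
Trim30a, upstream start (chr7:104465210-104465239, minus strand): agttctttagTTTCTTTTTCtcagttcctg
Trim30a, downstream start (chr7:104446104-104446133, minus strand): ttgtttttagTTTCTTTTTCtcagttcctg
Trim30d (chr7:104507871-104507900, minus strand): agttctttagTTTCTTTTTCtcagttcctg
Trim2, outside the interferon list (chr3:84212791-84212820, minus strand): tcagctttggTTTCCTTTTCtctaagacag

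The windows fell into families of copies. Those of Trim5 and Trim12a matched at 30 of 30 bases and that of Trim12c matched both at 28 of 30. The upstream Trim30a window matched Trim30d at 30 of 30 bases, and the downstream Trim30a window matched them at 26. Trim21 and Trim26 each held 2 overlapping matches.

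Of the 68 TRIM genes, 33 (48.5%) were at or above 1 TPM in every library, against 43.8% of all protein-coding genes. A mean of at least 10 TPM was reached by 20 members (29.4%, against 29.3%). The TRIM genes were therefore expressed about as often as protein-coding genes as a whole. The median of the 33 was 14.8 TPM against 17.8 TPM for all protein-coding genes at or above 1 TPM in every library. At the other end 32 members were below 1 TPM in every library and 3 (Trim30b, Trim68 and Trim2) lay on both sides of 1. A count of 0 in every library was found for 12: Trim10, Trim42, Trim43a, Trim50, Trim52, Trim54, Trim55, Trim60, Trim61, Trim63, Trim75 and Trim80. Trim54, Trim55 and Trim63 encode the muscle RING finger proteins. The second transcript table described below gave some of the 12 a low value in the same libraries: Trim52 was at 0.094, 0.313, 0.188 and 0.49 TPM and Trim63 at 0.07, 0.079, 0.172 and 0.033 TPM, and Trim50 and Trim75 did not exceed 0.065 TPM. Counts of 0 allow up to 0.111, 0.0999, 0.0850 and 0.0761 CPM (counts scaled to the library total) in replicates 1 to 4 (3 counts of each total), a limit that covers counting error only.

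**Figure D1:**
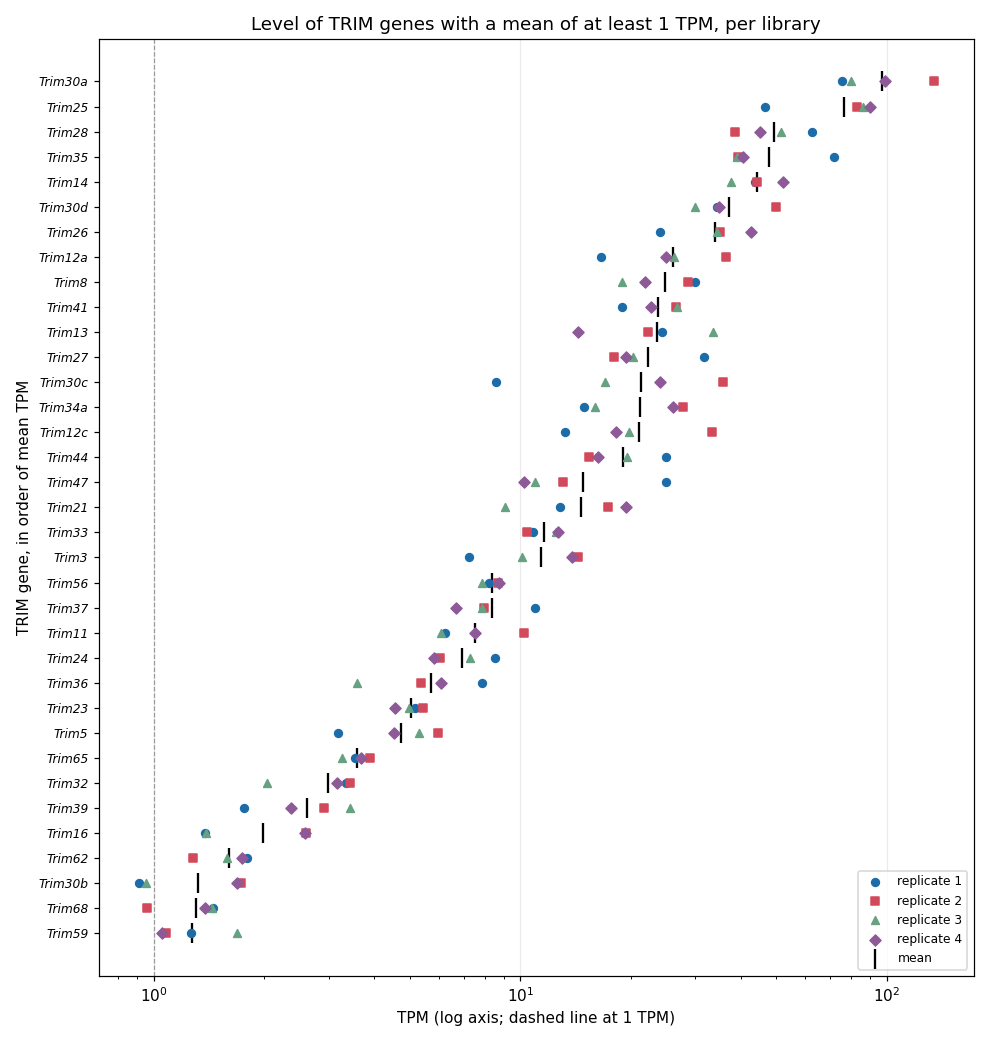
Level in TPM (log axis) of each TRIM gene with a mean of at least 1 TPM, in order of the mean. Points are the 4 libraries and the vertical tick is their mean; replicate 1 lies to the right of the others for Trim35 and Trim47 and to the left for Trim25 and Trim30c.

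The most abundant member was Trim30a (ENSMUSG00000030921.17; chr7:104409025-104465193, minus strand), which encodes a brake on Toll-like receptor signalling that promotes loss of the adaptors TAB2 and TAB3. It was measured at 75.4, 134, 79.8 and 99.1 TPM in replicates 1 to 4 (mean 97.2 ± 26.8, SD, n = 4), higher than 94.6% of protein-coding genes. Replicate 2 was the highest library, followed by replicate 4, and replicates 1 and 3 were the lowest. Trim25 (ENSMUSG00000000275.16; chr11:88999376-89020293, plus strand), the ligase that attaches ubiquitin to the RNA sensor RIG-I, was measured at 46.4, 82.8, 86.1 and 90.3 TPM (76.4 ± 20.2). Here replicate 1 was low and the other 3 were nearly level. Trim28 (KAP1, the corepressor that KRAB zinc finger proteins bring to retroelements) was measured at 62.4, 38.5, 51.5 and 45.0 TPM (49.3 ± 10.2). Its lowest library was replicate 2 in TPM but replicate 3 on the scaled counts of the test described below. Trim35, at 71.8, 39.3, 39.1 and 40.5 TPM (47.7 ± 16.1), showed the reverse of Trim25: replicate 1 was high and the other 3 were level. Trim14, which lacks a RING and acts as an adaptor at the mitochondrial protein MAVS, had the smallest relative spread in TPM of the 5, at 43.7, 44.1, 37.5 and 52.0 TPM (44.3 ± 5.92). On the scaled counts used for the test of variation below, however, it spanned 1.78-fold, close to Trim28 and Trim30a (1.81- and 1.80-fold). These 5 genes made up 44.5% of the mean TPM summed over the family, which was 707.9.

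Among genes for regulators of transcription, Trim28 was followed by Trim33 and Trim24, its relatives with a PHD finger and a bromodomain. Trim33, a regulator of SMAD4 signalling, was measured at 10.8, 10.4, 12.5 and 12.7 TPM, the smallest relative spread of any member with a mean of at least 10 TPM (coefficient of variation 9.93%). Trim66, the last member of that subfamily, did not exceed 0.05 TPM. Trim27 (RET finger protein) was measured at 31.7, 18.0, 20.3 and 19.4 TPM, with replicate 1 apart from 3 similar libraries. Trim8, a ligase acting on TAK1 in cytokine signalling, led the members with other C-terminal domains at 29.95, 28.8, 19.0 and 21.9 TPM. Replicates 1 and 2 were high for it and replicates 3 and 4 low.

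The NHL subfamily, whose C-terminal propeller binds RNA or protein partners, was led by Trim3 at 7.26, 14.4, 10.1 and 13.9 TPM. Trim2, better known from neurons, was at 1.16, 0.4, 0.49 and 0.32 TPM, highest in replicate 1. Of 7 microtubule-associated members with a COS box, Trim36 was expressed, at 7.84, 5.36, 3.59 and 6.07 TPM, and the other 6 were below 0.1 TPM in every library. Trim44, which lacks a RING, was measured at 25.0, 15.4, 19.6 and 16.3 TPM. Trim41 was measured at 18.9, 26.7, 26.8 and 22.8 TPM, lowest in replicate 1. Trim13, anchored in the endoplasmic reticulum membrane, differed from all of these in being highest in replicate 3 and lowest in replicate 4, at 24.3, 22.4, 33.7 and 14.4 TPM.

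Of the 15 interferon-associated members, 12 (80.0%) were at or above 1 TPM in every library, and of the remaining 53 members 21 (39.6%) were. The medians were 21.2 and 0.108 TPM. The list was drawn up from background knowledge of inducible genes, but with earlier results of these data known. No unstimulated library stands beside it, and its level therefore says nothing of induction. Outside chromosome 7 its members were Trim25 and Trim14 (above), Trim26 and Trim56. Trim26, a ligase acting on IRF3, was measured at 24.0, 35.04, 34.3 and 42.7 TPM, lowest in replicate 1 and highest in replicate 4. Trim56, which acts on the DNA-sensing pathway, was level at 8.21, 8.70, 7.84 and 8.76 TPM. Trim21, the cytosolic antibody receptor, lies at chr7:102557921-102565486, apart from the cluster described next, and was measured at 12.9, 17.4, 9.10 and 19.4 TPM, with replicates 2 and 4 above replicates 1 and 3.

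The remaining 10 form a single run of genes on chromosome 7 (chr7:104218793-104507849, 289.1 kb on mm10), the largest group of members in the genome when members within 1 Mb of each other were joined. Trim30a is its most abundant gene. The paralog Trim30d was measured at 34.3, 49.8, 29.9 and 34.8 TPM, and Trim30c (chr7:104382065-104400837, minus strand) at 8.58, 35.7, 17.0 and 24.0 TPM. Trim30c therefore spanned the widest range of any member with a mean of at least 10 TPM, with replicate 1 low and replicate 2 high. Trim12a was measured at 16.6, 36.4, 26.3 and 25.0 TPM, Trim12c, which works with TRAF6, at 13.3, 33.3, 19.7 and 18.3 TPM, and Trim34a at 14.9, 27.8, 16.0 and 26.1 TPM. In these 3 genes replicate 1 was again the lowest and replicate 2 the highest. Trim5, the mouse relative of a primate restriction factor for retroviral capsids, was lower at 3.19, 5.96, 5.29 and 4.52 TPM. Trim30b was measured at 0.910, 1.73, 0.950 and 1.69 TPM, Trim6 at 0.140, 0.190, 0.200 and 0.120 TPM, and Trim34b at 0, 0.25, 0.04 and 0 TPM. The last rested on 7.60 and 1.11 estimated counts, and Trim34b is nearly a copy of Trim34a. The sum over the 10 genes was 167.3, 325.3, 195.2 and 233.6 TPM, so replicate 2 was high and replicate 1 low for the cluster as a whole.

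To separate variation between libraries from counting noise, a chi-square test of homogeneity was run on the rounded expected counts of every gene with a mean of at least 10, against library sizes scaled by edgeR's TMM method. It covered 12626 genes, of which 88.6% passed at an adjusted p of 0.05 (Benjamini-Hochberg over all of them), and 35 of the 38 TRIM genes tested passed. Trim7, Trim23 and Trim65 did not (adjusted p = 0.553, 0.469 and 0.302 in the chi-square test). Since nearly every gene passed, a gene was called variable when its scaled counts also spanned at least 2-fold between the lowest and the highest library. That call was made for 32.9% of all genes and for 10 of 38 TRIM genes (26.3%), a share near the background. The median range over the 38 was 1.74-fold against 1.68-fold over all genes.

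The 10 variable members were Trim30c (4.25-fold), Trim2 (2.88), Trim16 (2.77), Trim47 (2.65), Trim12c (2.58), Trim25 (2.52), Trim13 (2.31), Trim12a (2.20), Trim39 (2.09) and Trim21 (2.01). Trim47 was measured at 25.1, 13.1, 11.0 and 10.2 TPM, with replicate 1 above 3 similar libraries. Trim16, which lacks a RING and takes part in the response to damaged lysosomes, was measured at 1.38, 2.61, 1.39 and 2.58 TPM. Its replicates 2 and 4 were thus about level and above replicates 1 and 3. Trim39, at 1.76, 2.92, 3.44 and 2.37 TPM, was lowest in replicate 1. Just outside the 2-fold limit were Trim30b (1.98-fold) and Trim34a (1.97-fold). Replicate 1 carried most of these calls: without it 3 TRIM genes were variable, of which Trim13 and Trim21 were among the 10 and Trim17 was not, while 16.0% of all genes were. Between replicates 3 and 4 alone, 1 member, Trim13, was called, beside 9.81% of all genes. Trim21 lost its call under DESeq2 size factors (1.98-fold) and under plain library totals (1.89-fold). In the second transcript table Trim21 (1.95-fold) and Trim39 (1.90-fold) both lost it.

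**Figure D2:**
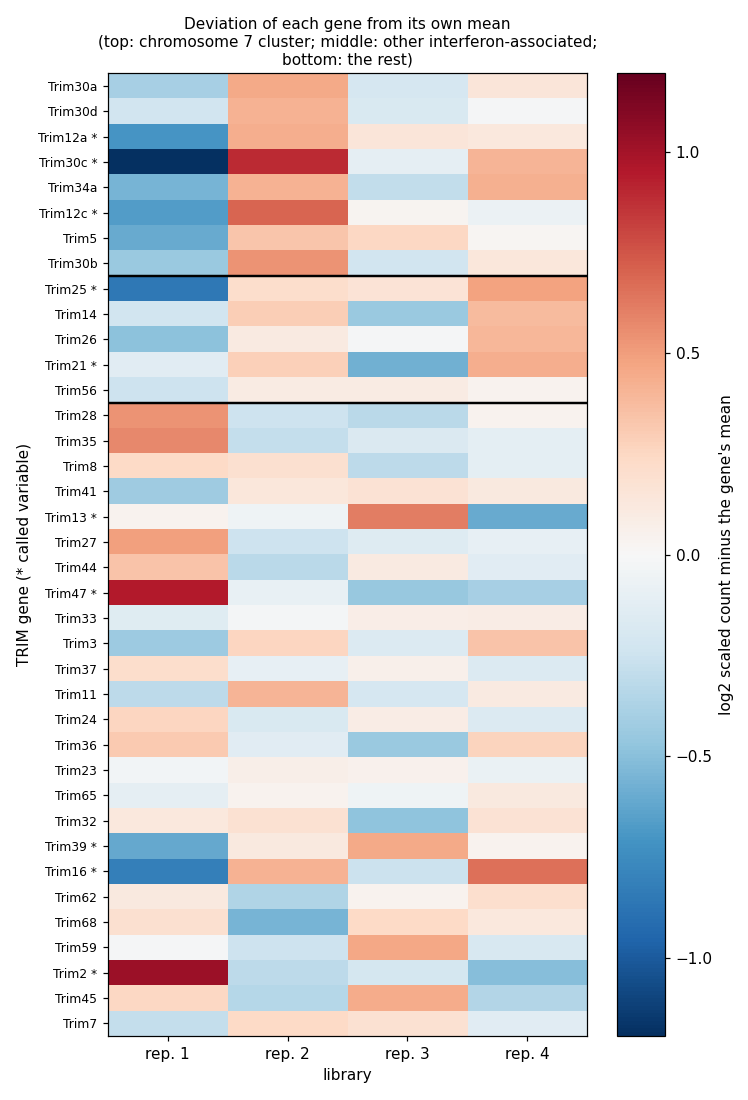
Deviation of each tested TRIM gene from its own mean over the 4 libraries, on the log2 scale of TMM-scaled counts; an asterisk marks the 10 genes called variable. Rows above the first line are the chromosome 7 cluster, those between the lines the other interferon-associated members; in the top block every gene is below its mean in replicate 1 and above it in replicate 2.

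The direction of the deviations differed more between groups of members than the number of calls did. All 8 tested genes of the chromosome 7 cluster had their lowest scaled count in replicate 1, a library that was lowest for 32.6% of all genes tested, and 7 of the 8 had their highest in replicate 2, which was highest for 22.8%. The exception was Trim34a, whose replicates 4 and 2 were nearly level (log2 deviations 0.43 and 0.42). The median log2 deviation of the 8 from each gene's own mean was -0.58, 0.44, -0.14 and 0.13 in replicates 1 to 4, beside medians between -0.02 and 0.02 over all genes. On the TPM scale Trim30d was lowest in replicate 3 rather than in replicate 1, and Trim34a was highest in replicate 2. These counts were taken after the members' values had been seen, and since the genes share sequence (below) they are not 8 separate observations. Replicate 1 also had the fewest counts and the largest ribosomal RNA share (mitochondrial included). Its sum of macrophage markers, made up mostly of Lyz2, was the lowest too, but close to that of replicate 3 (19637 against 20390 TPM). The part of these in the result was not tested. In bulk RNA, fewer cells that express a gene and less of its RNA per cell cannot be told apart.

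Over the interferon-associated list as a whole, 13 of 15 members could be tested, all 13 passed the chi-square test (as did 88.6% of all genes) and 5 were variable (Trim12a, Trim12c, Trim21, Trim25 and Trim30c). These 5 are 38.5% of the 13, near the 32.9% of all genes called variable. Of the 13, 11 were lowest in replicate 1 (as were 32.6% of all genes) and the other 2, Trim14 and Trim21, in replicate 3. Of the 11, 8 are the chromosome 7 cluster genes already counted above, and the others are Trim25, Trim26 and Trim56. In TPM, Trim30d and Trim56 were lowest in replicate 3 instead. Without replicate 1, Trim21 alone of the list was called variable, beside 16% of all genes. Without replicate 2 the calls fell to 2, beside 27.6% of all genes. Outside the list 25 members were tested and 5 were variable (20.0%, against the same 32.9%): Trim2, Trim13, Trim16, Trim39 and Trim47. Their median log2 deviation in replicate 1 was 0.12, against -0.49 for the interferon-associated members, and 10 of the 25 were highest in that library, beside 35.8% of all genes. The members with a mean of at least 10 TPM that were highest in replicate 1 were Trim28, Trim35, Trim8, Trim27, Trim44 and Trim47, all outside the list. Members whose promoter held the response element were lowest in replicate 1 in 7 of 9 cases, the exceptions being Trim21 and Trim2, against 7 of the 20 tested members with a promoter but no element. Of the 7, 6 are chromosome 7 cluster genes already counted above (the other is Trim26), with near-copy windows, so this is largely the same observation. The split was also made after the values had been seen.

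A reference list of 10 interferon-stimulated genes outside the family varied more widely than the TRIM genes. All but Irf7 (1.96-fold) were called variable, with a median range of 2.96-fold. Cxcl10, a chemokine, was measured at 416.6, 1533, 247.0 and 1485 TPM, and Rsad2, the antiviral enzyme viperin, at 132.9, 484.8, 191.5 and 575.4 TPM. Ifit2 was measured at 68.5, 448.5, 137.4 and 359.3 TPM and Ifit1 at 60.2, 181.4, 50.4 and 288.4 TPM. For these, replicates 2 and 4 were high, and replicates 1 and 3 were low. The lowest library was replicate 3 for 6 of the 10 (it was lowest for 24.7% of all genes) and replicate 1 for 4, whereas for the chromosome 7 TRIM genes it was replicate 1 for 8 of 8. The reference genes' median log2 deviations were -0.74, 0.69, -0.57 and 0.70 in replicates 1 to 4.

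All 10 reference genes had scaled counts in both replicates 2 and 4 above those in both replicates 1 and 3, an order found in 26.6% of all genes tested. Of the 13 tested interferon-associated TRIM genes, 9 had it: Trim14, Trim21, Trim25, Trim26, Trim30a, Trim30b, Trim30c, Trim30d and Trim34a. The 4 without it were Trim5, Trim12a, Trim12c and Trim56. Outside the list 5 of 25 members had it (Trim3, Trim11, Trim16, Trim32 and Trim65). The count of 9 was the same under TPM, DESeq2 size factors, plain library totals and the second transcript table, but not always for the same genes. In TPM, Trim25 lacked the order (82.8 in replicate 2 against 86.1 in replicate 3) and Trim56 had it. This order was picked after the reference genes' values had been seen, and it is a description without a test.

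The enzymes and substrates around the TRIM ligases were present throughout. Of 20 genes for ubiquitin, E1 and E2 enzymes, 19 were at or above 1 TPM in every library. Among the highest were the ubiquitin genes Ubb and Rps27a, with means of 976.5 and 931.2 TPM. The median range of the list was 1.31-fold, beside 1.74-fold for the TRIM genes and 1.68-fold for all genes, and 3 of the 20 (15.0%) were variable, beside 32.9% of all genes. One was Ube2l6, the E2 of the ubiquitin-like modifier ISG15, at 73.4, 106, 53.1 and 111 TPM, with replicates 2 and 4 high. Ube2v2, a cofactor of Ube2n in making K63-linked chains, was measured at 30.7, 25.2, 45.9 and 15.0 TPM, highest in replicate 3 and lowest in replicate 4, as Trim13 was. The third was Ube2e2, the list's lowest gene, at 2.13, 1.28, 1.37 and 0.950 TPM.

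All 18 genes on a list of sensors, adaptors, kinases and other signalling proteins that TRIM proteins act on or with were at or above 1 TPM in every library. The list is not separate from those above: Ube2n is also on the ubiquitin list and Irf7 on the reference list. Nlrp3, Irf7, Ube2n and Tab2 were the highest, with means of 309.0, 143.8, 112.9 and 66.5 TPM. Of the 18, 5 were variable (27.8%, no larger a share than the 32.9% of all genes). Ddx58, which encodes RIG-I, the target of Trim25, was measured at 43.4, 86.8, 32.3 and 69.3 TPM, and Ifih1 at 28.1, 55.9, 29.5 and 69.8 TPM. Tmem173, which encodes STING, was measured at 13.6, 29.5, 11.2 and 25.5 TPM. In all 3, replicates 2 and 4 were above replicates 1 and 3. Nod2 had the same order, at 6.60, 16.9, 7.75 and 12.8 TPM, but the gene of the DNA sensor cGAS went the other way, at 12.8, 6.63, 5.60 and 6.85 TPM with replicate 1 high. Of 6 TRIM family genes with other symbols, Pml, Mefv and Mid1 were the ones at or above 1 TPM in every library, with means of 26.1, 16.3 and 16.2 TPM. Mefv, which encodes pyrin, was called variable (2.44-fold) and was highest in replicate 3. Mid2, at a mean of 0.123 TPM, was also called and was highest in replicate 1.

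Reads of the chromosome 7 genes could be divided between copies in more than one way. The coding sequence of Trim34a was 98.2% identical to that of Trim34b over aligned bases, Trim5 was 96.6% identical to Trim12c and 97.1% to the shorter Trim12a (891 coding bases against 1491), and Trim30a was 90.2% identical to Trim30d. As a rough measure of what a read could not tell apart, the share of 31-base words in a gene's transcripts that also occur in another gene was counted. Words were pooled over all annotated transcripts of a gene, noncoding ones included, whatever their level. The share was 69.0% for Trim34b, 52.9% for Trim5, 48.7% for Trim34a, 47.7% for Trim12c, 15.7% for Trim12a, 11.9% for Trim30d and 11.7% for Trim30a. That of Trim12a takes in the retained-intron model Trim12a-205 (3730 bases) beside the leading Trim12a-203 (1486 bases). It therefore does not give the share for the leading transcript. Outside the cluster, Trim43b, Trim43a and Trim43c, none above 0.05 TPM, shared 64.5%, 63.5% and 58.6%, and Trim17 shared 18.2%. Among expressed members outside it, Trim13 shared the most, 28.7%, chiefly with the gene model Gm9359, and 37 of the 68 members shared under 1%. The values of the members with large shares are therefore uncertain in how reads were split. In addition, 39 members overlap another annotated gene, 21 of them among the 33 expressed in every library, and Trim47 and Trim65 overlap each other on the same strand. Whether counting used the strand is not given in the sources used here.

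A second set of transcript estimates, made separately and deposited for the same libraries, was summed to genes to see whether the values held. After division by the library's median ratio over protein-coding genes (0.718, 0.673, 0.876 and 0.852), all 33 TRIM genes at or above 1 TPM in every library agreed within 1.5-fold in every library, as did 94.8% of 9636 protein-coding genes. Shared-sequence genes were among them: the relative ratio was 0.936 to 1.08 for Trim5, 0.969 to 1.04 for Trim12c and 1.01 to 1.04 for Trim34a. It was wider for others of the cluster, at 0.96 to 1.16 for Trim12a and 1.112 to 1.305 for Trim30c. Agreement of estimates from the same libraries does not show that reads were divided correctly between copies. The deposited credibility intervals of the gene tables, whose level is not stated, did not overlap between at least 1 pair of libraries for 25 of the 33. The same count was not made over all genes, so it cannot be read as a trait of the TRIM genes.

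**Figure D3:**
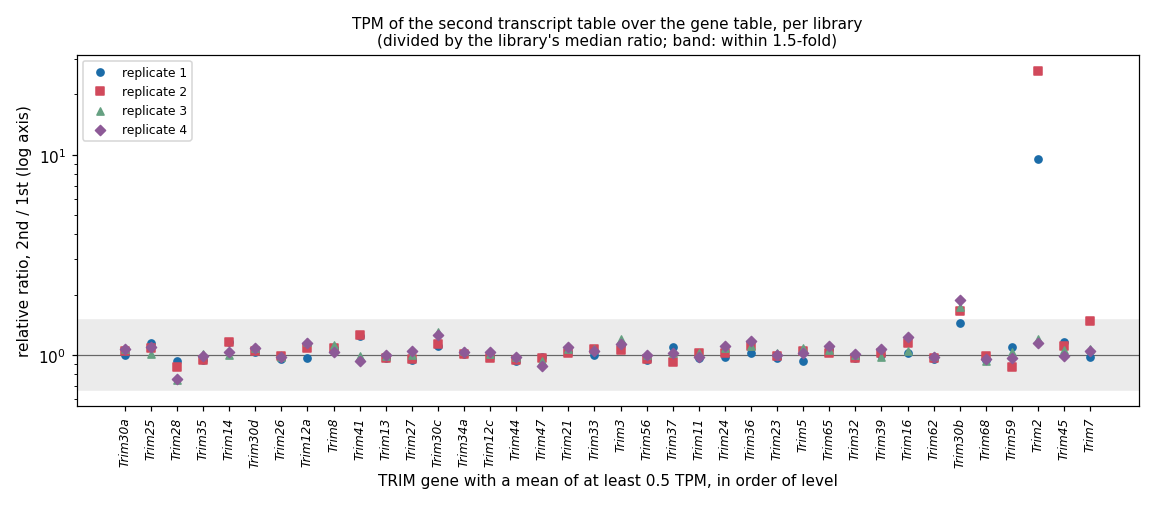
Relative ratio (log axis) of each TRIM gene's TPM in the second transcript table to that in the gene table, for genes with a mean of at least 0.5 TPM; points are libraries and the band marks agreement within 1.5-fold. Trim2 lies far above the band in replicates 1 and 2, and Trim30b lies above it in replicates 2, 3 and 4.

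Trim2 was the clear exception among lower members. Its relative ratio was 9.498 and 26.3 in replicates 1 and 2 but 1.198 and 1.15 in replicates 3 and 4. Nearly all of the excess sat in 1 transcript, the retained-intron model Trim2-212 (3870 bases), given 7.22, 6.81, 0.0890 and 0.0480 TPM by the second table and 0, 0, 0 and 0.0200 TPM by the first. Replicates 1 and 2 were each made from 6 read files and replicates 3 and 4 from 4, and the part of this in the difference was not tested. Trim30b was higher in the second table in all 4 libraries, with relative ratios of 1.44 to 1.87.

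Transcript shares were described for the 35 members with a mean of at least 1 TPM. The leading transcript was the same in both tables for 33, and for 25 of them it also led in every library. It was protein-coding for 33 members in the first table and 34 in the second. In 21 members protein-coding transcripts held at least 90% of the TPM in both tables, among them Trim30a (99.1% and 96.8%), Trim30c, Trim12c, Trim25 and Trim35. In 6 they held under 75% in the first table: Trim12a, Trim14, Trim26, Trim28, Trim30b and Trim47.

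Since TPM is corrected for length, a short transcript holds a larger share of TPM than of reads. Part of the TPM of Trim28 was assigned to noncoding transcripts in both tables. Its single protein-coding transcript, Trim28-201, was given 39.0, 21.6, 16.2 and 24.2 TPM in the first table, 50.9% of the gene's TPM on average, and the rest went largely to the short models Trim28-203 (retained intron, 565 bases) and Trim28-210 (851 bases). The split between these 2 differed between the tables: Trim28-203 had 32.6% ± 3.03 (SD, n = 4) in the first and 8.90% ± 6.49 in the second. Trim14 was divided between the coding Trim14-201 and 2 noncoding processed transcripts. Trim14-201 held 52.8%, 76.4%, 33.0% and 56.1% in the first table and 52.9%, 71.0%, 37.7% and 60.5% in the second. Both tables thus placed the coding share highest in replicate 2 and lowest in replicate 3, so the gene's TPM (37.5 to 52.0) spanned less than that of its coding transcript (12.4 to 33.7).

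In Trim26 the noncoding Trim26-209 was given 5.37, 11.6, 16.7 and 19.2 TPM by the first table but 0, 3.45, 12.5 and 9.24 TPM by the second, and the leading transcript differed between them. The coding transcripts Trim26-205 and Trim26-201 were estimated more alike, with mean shares of 28.0% and 20.2% in the first table and 33.8% and 25.2% in the second. The rank order of Trim26 between libraries (replicate 1 lowest) was not that of its main coding transcript: Trim26-205 was at 8.45, 12.1, 7.02 and 9.32 TPM, lowest in replicate 3. Trim25 was read mostly as the long Trim25-203 (5590 bases), at 37.4, 80.0, 70.0 and 89.6 TPM in the first table, and replicate 1 was the lowest in the second table as well (23.8 TPM against 49.3 to 73.5). Trim34a was split between Trim34a-203 and Trim34a-201. Trim34a-203 held 35.7% in replicate 1 and 56.7% to 63.0% in the others, and the second table gave 33.5% and 53.7% to 58.9%. Trim30d-202 held between 60.9% and 77.6% of Trim30d in the first table, lowest in replicate 1 and highest in replicate 3, and the second table gave the same order at those ends (54.8% and 75.6%). These shares are estimates without a test.

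**Figure D4:**
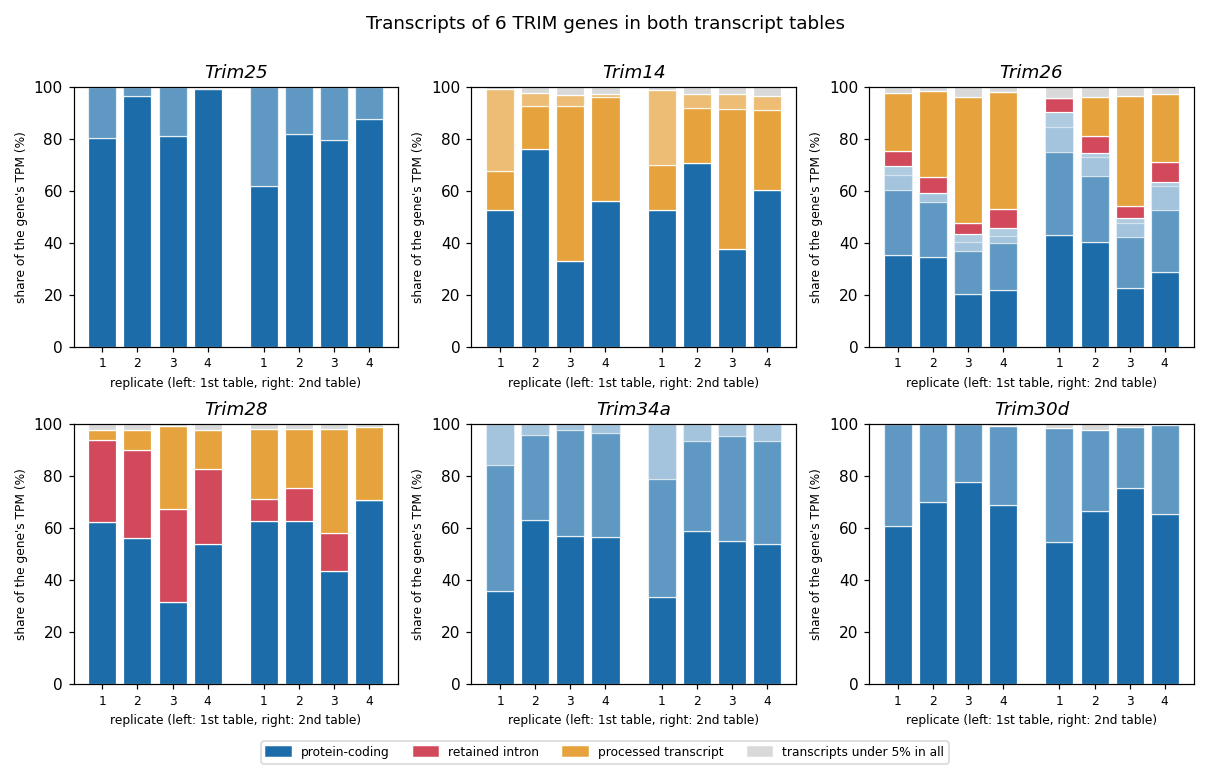
Share of each gene's TPM (percent) assigned to its transcripts in 6 TRIM genes, with 4 bars (replicates 1 to 4) per table; blue is protein-coding, red retained intron and orange processed transcript, and shades within a colour are separate transcripts. Grey joins transcripts that stay under 5% throughout; orange and red fill a large part of Trim14, Trim26 and Trim28 and none of the labelled part of Trim25, Trim34a or Trim30d.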

How the data were processed

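For each of 4 libraries the authors deposited a gene table and 2 transcript tables, made by estimating per feature an expected count (estimated count in the second transcript table), per the file headers. The authors' tables also hold TPM values, and the gene table holds lower and upper bounds of TPM, a signal column of unstated level, per the file headers. Notes deposited with the tables give mm10 and GENCODE M21, with a transcriptome alignment behind the gene values and behind 1 of the transcript tables, called the first here, and the read files behind the other; sources used here name no quantification tool, setting or strandedness.

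From these, expected counts were rounded, scaled with edgeR 4.0.16 (TMM, R 4.3.3), and each gene with 10 or more counts on average was tested for homogeneity by chi-square (3 degrees of freedom, SciPy 1.17.1), the p-values being adjusted by Benjamini and Hochberg's procedure across the whole table; a pseudocount of 0.5 went into ranges and log2 deviations. The test covers counting noise, not the uncertainty of dividing reads between genes. It was first run on simulated counts drawn with counting noise alone, apart from some genes given set changes. That run checks the calculation and not whether the real libraries meet its assumption. DESeq2 1.42.0 size factors, other filters, the second transcript table and left-out libraries were alternatives. Depth was 26917288 to 39438391 counts per library. Levels were described without a test, since there is 1 group.

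Named members were those with a mean of at least 10 TPM, those called variable, the interferon-associated list and the highest of each structural list; other genes were named from fixed lists (the highest 4, those called variable and those at 0). Members and lists were chosen with earlier results of these data known. Trim17, Trim7, Trim23, Trim65, Trim66, Trim24, Trim11, Trim32, Trim43b, Trim43c and Trim68 and the genes at 0 were named beside counts after their values were seen. Promoters and their letters are from RefSeq (GRCm38.p6); 15 members without an entry were left out of motif counts. Position groups (within 1 Mb), shared 31-base words and coding identity (Biopython 1.88, GENCODE M21 transcripts) were added after the values were seen. The planned comparison of protein sequences was not run, and coding sequences were compared in its place. Some genes of the fixed lists are not reported here.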

Additional observations from a re-analysis of the deposited data

Results flagged for a closer look

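In each of the 38 TRIM genes with a mean of at least 1 TPM or, below that, called variable or interferon-associated (Trim2, Trim6 and Trim34b), the highest and lowest of the 4 libraries were compared with their nearest neighbour, and a gap taking up nearly the whole range was picked out (Dixon's criterion at the 95% level for groups of 4). Such a library was found in 5 of the 38, and chance alone picks out about 1 in 20. The criterion was not applied to other genes, so whether 5 of 38 differs from the share over all genes is not known. Of these values 3 came from replicate 1: Trim25 was low there at 46.4 TPM, and Trim35 and Trim27 were high at 71.8 and 31.7 TPM. In replicate 2, Trim68 was low at 0.96 TPM and Trim34b was high at 0.25 TPM, the latter on 7.60 estimated counts, too few for the test of variation, of a gene whose transcripts share 69.0% of their 31-base words with other genes. The opposite directions of Trim25 and of Trim35 and Trim27 in replicate 1 were present under all 5 scalings. The part of that library's lower depth and larger ribosomal RNA share was not tested.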

How the results depend on the processing

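The number of TRIM genes called variable (10) was 9 to 13 under other scalings, count filters and the second transcript table (13 there, of which 8 were among the 10), and 29 with a 1.5-fold range. With each replicate left out in turn it was 3 to 12, lowest without replicate 1, and between replicates 3 and 4 alone it was 1. Over all genes the share called was 24.4% to 36% under the other scalings, count filters and second transcript table, and 58.1% with a 1.5-fold range. It was 16% to 29.1% with a replicate left out and 9.81% between replicates 3 and 4, beside 32.9% in the main run. The same shares stand beside the counts of calls that follow. The interferon-associated calls (5) became 12 with a 1.5-fold range, 1 to 7 with a replicate left out (1 without replicate 1, 2 without replicate 2) and 0 between replicates 3 and 4. The chromosome 7 calls (3) became 5 with no filter on the mean count, 6 with the second transcript table, 8 with a 1.5-fold range, 0 to 6 with a replicate left out (0 without replicate 1, 1 without replicate 2, 6 without replicate 4) and 0 between replicates 3 and 4. The 1.5-fold range loosens the call by construction and pairs of libraries give fewer values to span; the cause of the other shifts was not tested. The counts of chromosome 7 genes lowest in replicate 1 (8) and highest in replicate 2 (7), of interferon-associated genes lowest in replicate 1 (11) and of members at or above 1 TPM in every library (33) stayed within 1.5 times their value under every alternative run. No paired analysis was possible because all 4 libraries belong to 1 group. Levels near 3 counts, transcript shares and paralogs with shared sequence are limited by depth and by how reads were divided.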
